A study of Mus musculus with 16 samples.

Results

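The genes described here are 36 mouse genes that encode the enzymes of serine synthesis, the folate one-carbon cycle, and purine, pyrimidine and deoxynucleotide production. They were measured in 13 thymic T-cell lymphomas from transgenic mice and in 3 samples of thymic T cells from wild-type (WT) littermates. Each gene was read from the brightest array feature that is annotated with that gene alone. Of the 36 genes, 33 had such a feature, and all 33 exceeded the median on each of the 16 arrays and were tested among 12932 genes. Pfas and Nme2 share their features with other genes and Impdh2 is on no named feature, so these were not analysed here.

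The tumors fall into 4 groups. Lck-Dlx5 tumors (n = 3, from mice aged 9 months) carry a transgene for the homeobox transcription factor Dlx5, and came 1 each from founder lines 63, 47 and 86. Lck-MyrAkt2 tumors carry an active, membrane-bound form of the kinase Akt2, and came from founder line 72 (n = 3) and founder line 420 (n = 3), both from mice aged 5 months. Double transgenic tumors (n = 4, from mice aged 2 months) carry both transgenes, with the Dlx5 transgene from founder line 47 in replicates 1 and 2 and from founder line 86 in replicates 3 and 4. The labels give MyrAkt2 line 420 for replicates 1 and 2 and no Akt2 line for the others. The WT samples (n = 3, age 9 months) were littermates of Lck-Dlx5 mice. The Lck promoter, a promoter of immature T cells, drives both transgenes, and the tumors were primary lymphomas of separate mice. Lck-Dlx5 and WT mice were of 1 age, as were the mice of the Lck-MyrAkt2 lines, and in the other comparisons age and genotype cannot be told apart.

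Proliferating cells draw on these pathways for the building blocks of RNA and DNA. Serine is made from an intermediate of glycolysis, and its conversion to glycine loads a one-carbon unit onto folate, in the cytosol and in mitochondria. That unit is used in building the purine ring and in methylating deoxyuridylate to thymidylate, while carbamoyl phosphate and aspartate supply the pyrimidine ring. Phosphoribosyl pyrophosphate (PRPP) provides the ribose for both rings, ribonucleotide reductase makes the deoxynucleotides, and salvage enzymes reuse bases and nucleosides. In the thymus, salvage of deoxynucleosides is a known source of DNA precursors, and purine and pyrimidine antimetabolites are used against T-cell leukemia.

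The transgene and its labels were checked first. Dlx5 lay at 11.45, 12.08 and 12.30 in Lck-Dlx5 tumors, 6.05, 6.05 and 6.07 in line 72 tumors, 9.87, 10.69 and 10.28 in line 420 tumors, 12.68, 11.93, 12.96 and 12.83 in double transgenic tumors, against 5.82, 5.76 and 5.70 in WT T cells (log2 level). Dlx5 was thus high in every tumor with the Dlx5 transgene and also in the tumors labelled Lck-MyrAkt2 line 420, with a log2 difference from WT of 4.52 ± 0.26 (SE; adjusted p = 2.1e-07), whereas in line 72 tumors it was not called (adjusted p = 0.43). An inversion of chromosome 6 that switches on Dlx5 is known from Lck-MyrAkt2 lymphomas, and whether these tumors carry it was not examined here. Akt2 had log2 differences from WT of -0.26, 0.16, -0.20 and 0.03 in Lck-Dlx5, line 72, line 420 and double transgenic tumors and was called in none, so its feature does not check the MyrAkt2 labels. Array medians ran from 6.32 to 6.47, and across genes arrays correlated at 0.992 to 0.993 within WT, at 0.909 to 0.98 within tumor groups and at 0.85 to 0.963 between groups.

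The comparison of each tumor group with WT asked how the pathway genes stood in the lymphomas. Most were higher. In Lck-Dlx5 tumors 22 of 33 rose and 2 fell, against 13.7% and 15.9% of all genes tested. In line 72 tumors 24 rose and 2 fell, against 20.7% and 15.6% of all genes. In line 420 tumors 23 rose and 3 fell, against 15.1% and 15.4%, and in double transgenic tumors 22 rose and 1 fell, against 14.9% and 8.93%. The median log2 difference over the 33 genes was 0.78 in Lck-Dlx5, 1.03 in line 72, 0.78 in line 420 and 0.64 in double transgenic tumors, beside medians of 0.005, 0.045, 0.029 and 0.051 over all genes in the same order. A gene is called here when limma's p, adjusted by Benjamini-Hochberg over all genes tested, is under 0.05, and the 4 comparisons share the same 3 WT arrays. The count for double transgenic tumors was 15 without WT replicate 2.

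**Figure D1:**
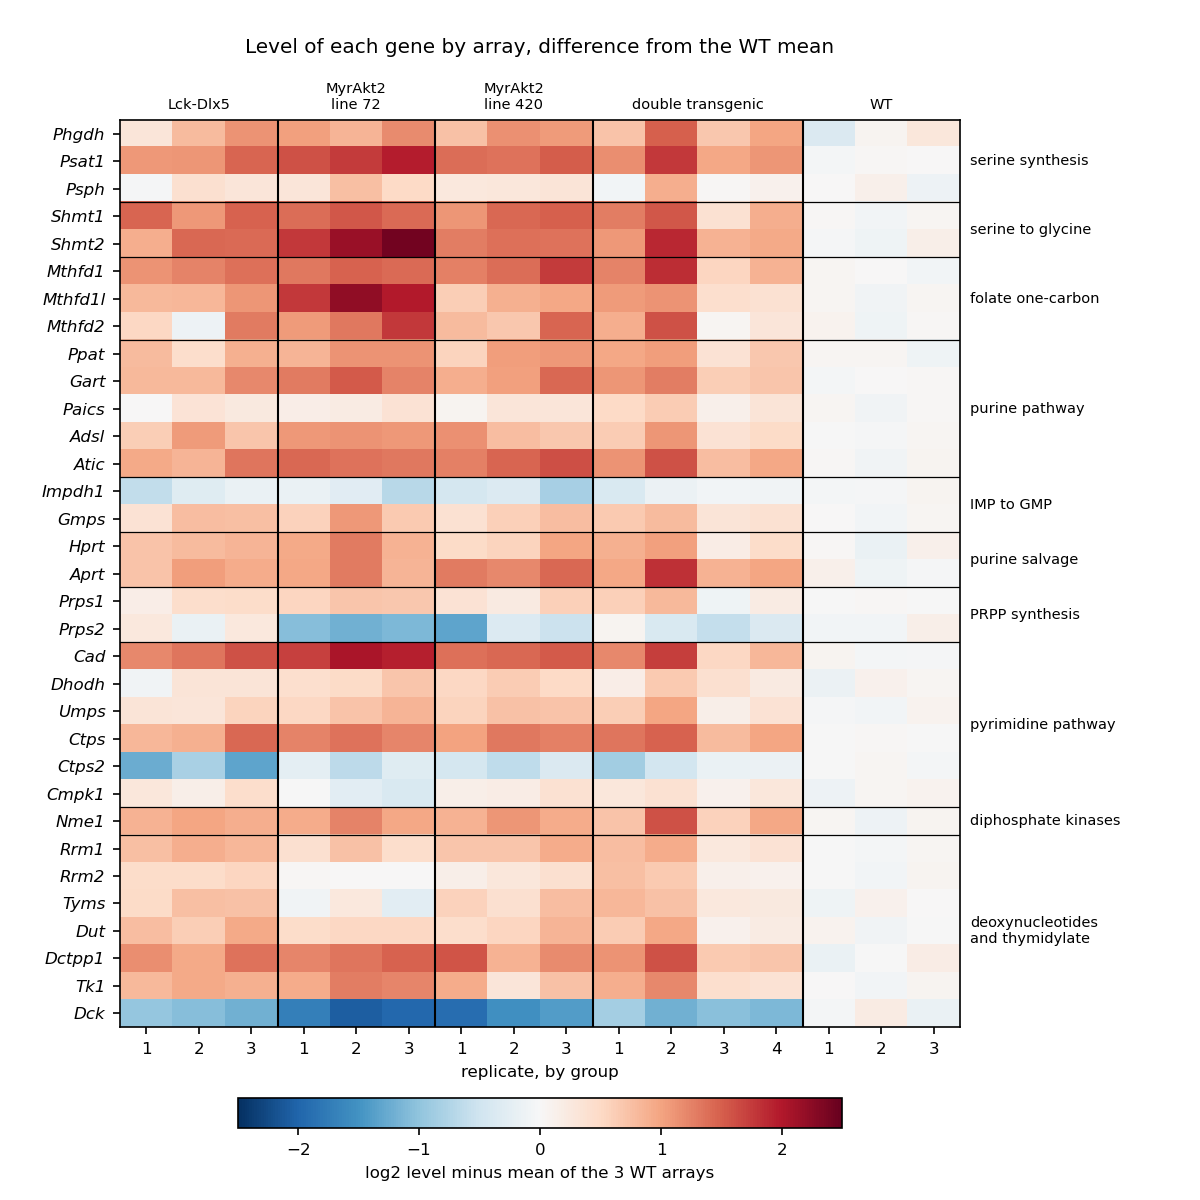
Heat map of the 33 genes (rows, grouped by role) on the 16 arrays (columns, by group and replicate); color is the log2 level minus the mean of the 3 WT arrays. The tumor columns are mostly red, with the medians over the 33 genes between 0.35 and 1.12, while Dck, Ctps2 and Impdh1 are blue in all 13 tumors and Prps2 in some.

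**Figure D2:**
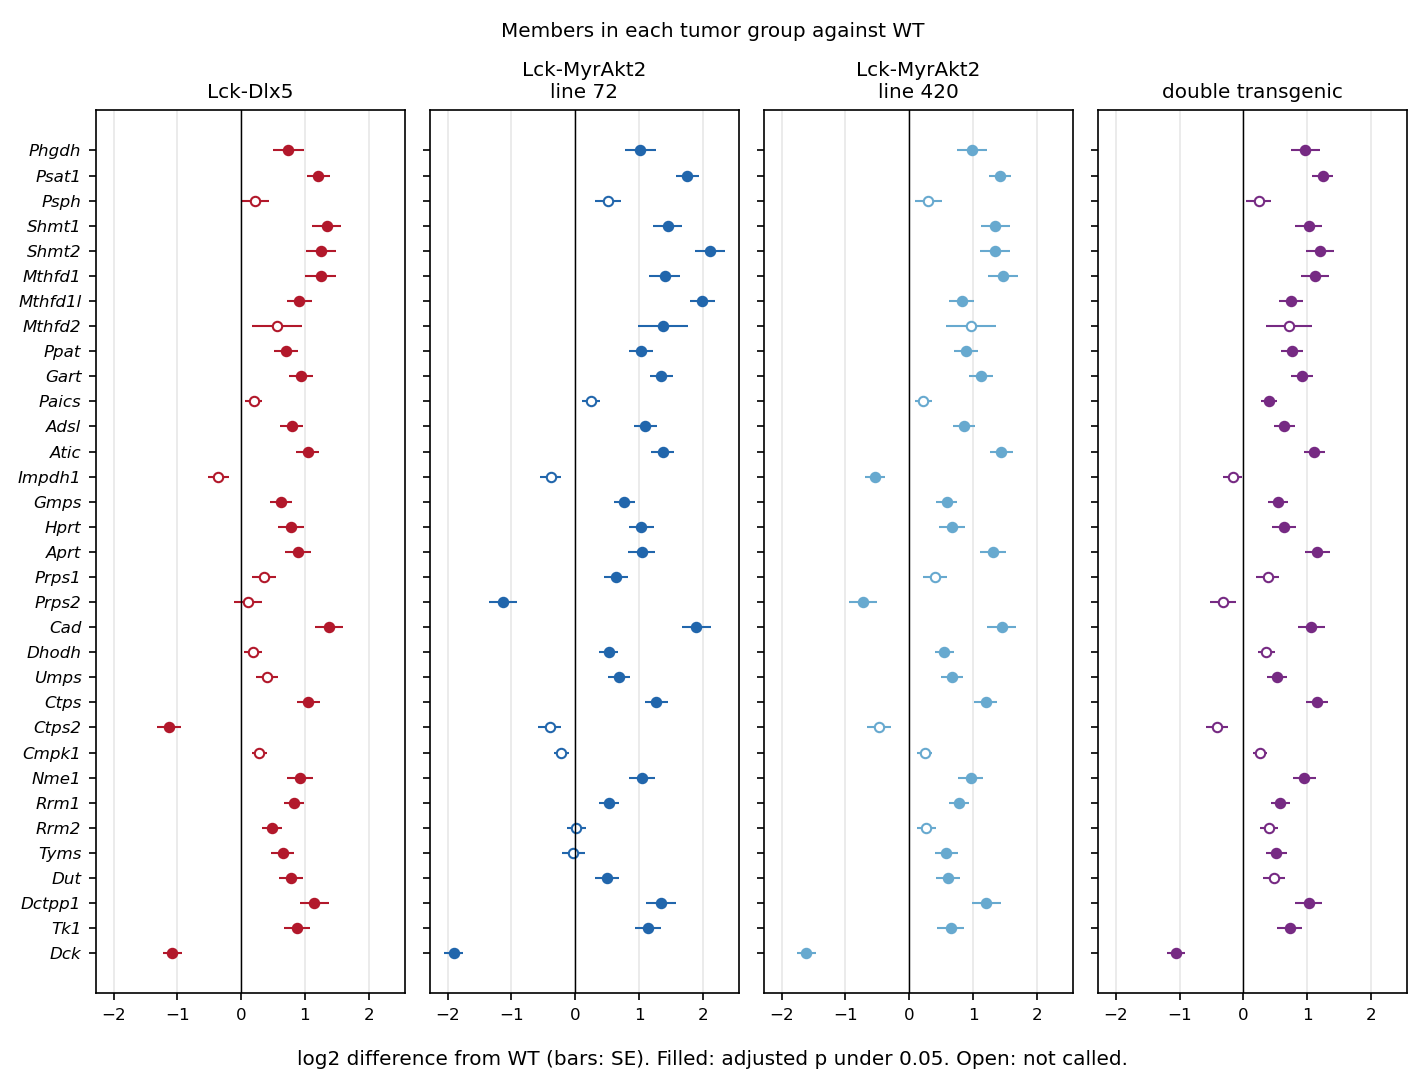
Log2 difference from WT (x axis) for each gene (y axis) in 4 panels, 1 per tumor group; bars are the SE of limma's fit, filled points have an adjusted p under 0.05 and open points do not. Shmt2 at 2.11, Mthfd1l at 2.00 and Cad at 1.90 in line 72 lie farthest to the right, and Dck at -1.91 in line 72 farthest to the left.

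Of the genes of serine synthesis, Psat1, the aminotransferase of the pathway, and Phgdh, its first enzyme, rose in each tumor group. Psat1 lay at 9.44, 9.46 and 9.80 in Lck-Dlx5 tumors, 9.94, 10.09 and 10.31 in line 72 tumors, 9.75, 9.70 and 9.87 in line 420 tumors, 9.51, 10.12, 9.32 and 9.45 in double transgenic tumors, against 8.31, 8.38 and 8.37 in WT T cells. No tumor value overlapped the WT values, and line 72 tumors were the highest group. The log2 differences of Psat1 were 1.21 ± 0.18 (SE; adjusted p = 0.00049) in Lck-Dlx5, 1.76 ± 0.18 (SE; adjusted p = 9.9e-06) in line 72, 1.42 ± 0.18 (SE; adjusted p = 0.00013) in line 420 and 1.25 ± 0.16 (SE; adjusted p = 0.00024) in double transgenic tumors, and that in line 72 is a 3.39-fold higher level. Phgdh lay at 8.92 to 10.11 on the 13 tumor arrays, against 8.26 to 8.90 on the 3 WT arrays, and its difference was 0.74 ± 0.24 in Lck-Dlx5 tumors and 1.02 ± 0.24 in line 72 tumors (SE). The call in Lck-Dlx5 tumors was lost when replicate 2 or 3 of that group, or WT replicate 1 or 2, was left out. Psph, the phosphatase of the last step, was not called in any group, with differences of 0.22, 0.51, 0.30 and 0.24 in Lck-Dlx5, line 72, line 420 and double transgenic tumors.

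The enzymes that convert serine to glycine, Shmt1 in the cytosol and Shmt2 in mitochondria, both rose in every tumor group. Shmt2 lay at 10.82, 11.34 and 11.33 in Lck-Dlx5 tumors, 11.68, 12.06 and 12.31 in line 72 tumors, 11.19, 11.29 and 11.27 in line 420 tumors, 11.00, 11.79, 10.77 and 10.86 in double transgenic tumors, against 9.88, 9.79 and 10.05 in WT T cells. The line 72 values stood above the WT values by the widest margin of the 4 groups, and no group of tumors overlapped WT. The log2 differences of Shmt2 were 1.26 ± 0.24 (SE; adjusted p = 0.002) in Lck-Dlx5, 2.11 ± 0.24 (SE; adjusted p = 2.4e-05) in line 72, 1.34 ± 0.24 (SE; adjusted p = 0.0011) in line 420 and 1.20 ± 0.22 (SE; adjusted p = 0.0021) in double transgenic tumors, which in line 72 is a 4.32-fold higher level. Shmt1 lay at 8.11 to 9.29 on the 13 tumor arrays, against 7.65 to 7.77 on the 3 WT arrays, with differences of 1.34, 1.45, 1.35 and 1.03 in the same order of groups. For the mitochondrial enzyme the 4 differences spanned 1.20 to 2.11, and for the cytosolic enzyme 1.03 to 1.45.

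In the folate cycle the mitochondrial formate-releasing synthetase Mthfd1l was higher in line 72 tumors than in the other tumors. Mthfd1l lay at 8.65, 8.67 and 8.95 in Lck-Dlx5 tumors, 9.62, 10.07 and 9.84 in line 72 tumors, 8.47, 8.73 and 8.81 in line 420 tumors, 8.92, 8.96, 8.26 and 8.23 in double transgenic tumors, against 7.89, 7.76 and 7.89 in WT T cells. The log2 difference from WT was 2.00 ± 0.20 (SE; adjusted p = 9e-06) in line 72 tumors, a 3.99-fold higher level, and 0.91, 0.82 and 0.75 in Lck-Dlx5, line 420 and double transgenic tumors, all called. Mthfd1, the cytosolic trifunctional enzyme, showed no such order and lay at 9.53 to 10.84 on the 13 tumor arrays, against 8.93 to 9.04 on the 3 WT arrays, with differences of 1.25, 1.41, 1.47 and 1.12 in Lck-Dlx5, line 72, line 420 and double transgenic tumors. Mthfd2, the mitochondrial dehydrogenase and cyclohydrolase, varied most between tumors of 1 group. It lay at 8.31, 7.65 and 9.09 in Lck-Dlx5 tumors, 8.85, 9.10 and 9.55 in line 72 tumors, 8.57, 8.46 and 9.24 in line 420 tumors, 8.69, 9.38, 7.83 and 8.10 in double transgenic tumors, against 7.88, 7.67 and 7.81 in WT T cells. Lck-Dlx5 replicate 2 lay below every WT value, double transgenic replicate 3 lay between them, and the other tumors lay above. Only line 72 tumors were called, at 1.38 ± 0.39 (SE; adjusted p = 0.013), and that call was lost without line 72 replicate 3.

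Of the purine pathway, Ppat, the amidotransferase that starts it, and Gart, Adsl and Atic, which act after it, rose in every tumor group. Atic, which carries out the last steps to inosine monophosphate (IMP), lay at 10.59, 10.48 and 10.98 in Lck-Dlx5 tumors, 11.08, 11.00 and 10.96 in line 72 tumors, 10.91, 11.09 and 11.25 in line 420 tumors, 10.78, 11.23, 10.41 and 10.61 in double transgenic tumors, against 9.67, 9.56 and 9.71 in WT T cells. All tumors lay above all WT samples. The differences of Atic were 1.04 ± 0.18 (SE; adjusted p = 0.0013) in Lck-Dlx5, 1.37 ± 0.18 (SE; adjusted p = 8.5e-05) in line 72, 1.44 ± 0.18 (SE; adjusted p = 0.00014) in line 420 and 1.11 ± 0.17 (SE; adjusted p = 0.00066) in double transgenic tumors. Gart differed by 0.94, 1.35, 1.12 and 0.92 and Adsl by 0.79, 1.10, 0.86 and 0.64 in Lck-Dlx5, line 72, line 420 and double transgenic tumors. Adsl lies on chromosome 15, as Myc does, and gain of this chromosome is known in Lck-Dlx5 lymphomas but was not measured here. Gart has a pair of further, dimmer features, and with the mean of its features in place of the brightest it was not called in Lck-Dlx5 tumors.

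Ppat and Paics are neighbors on chromosome 5 (GRCm38.p6) on opposite strands, with Ppat annotated on the minus strand at chr5:76913249-76951578 and Paics on the plus strand at chr5:76951302-76967509, so that their starts overlap. Paics encodes the enzyme of the middle steps of the same pathway. Ppat lay at 10.04, 9.70 and 10.13 in Lck-Dlx5 tumors, 10.10, 10.37 and 10.37 in line 72 tumors, 9.80, 10.29 and 10.33 in line 420 tumors, 10.22, 10.30, 9.62 and 9.92 in double transgenic tumors, against 9.30, 9.31 and 9.16 in WT T cells. Every tumor exceeded every WT sample. For Paics the levels were 10.01, 10.35 and 10.24 in Lck-Dlx5 tumors, 10.18, 10.20 and 10.37 in line 72 tumors, 10.07, 10.30 and 10.30 in line 420 tumors, 10.51, 10.63, 10.13 and 10.33 in double transgenic tumors, against 10.05, 9.91 and 10.04 in WT T cells, so that Lck-Dlx5 replicate 1 lay among the WT samples and the other tumors above them. The differences were 0.71, 1.03, 0.89 and 0.76 for Ppat, called in every group, and 0.20, 0.25, 0.22 and 0.40 for Paics in Lck-Dlx5, line 72, line 420 and double transgenic tumors. Paics was called in double transgenic tumors alone (adjusted p = 0.032), and that call was lost in 9 of 18 alternatives, among them without double transgenic replicate 1 or 2 and without any 1 of the WT samples.

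Downstream of IMP, the genes toward guanine nucleotides differed in direction. Gmps, GMP synthetase, rose in every group, with differences of 0.62, 0.77, 0.59 and 0.54 in Lck-Dlx5, line 72, line 420 and double transgenic tumors. Impdh1, an IMP dehydrogenase, lay at 9.00, 9.31 and 9.43 in Lck-Dlx5 tumors, 9.43, 9.33 and 8.91 in line 72 tumors, 9.17, 9.26 and 8.78 in line 420 tumors, 9.22, 9.47, 9.55 and 9.51 in double transgenic tumors, against 9.56, 9.57 and 9.68 in WT T cells. It fell in line 420 tumors, at -0.54 ± 0.16 (SE; adjusted p = 0.023), and was not called in the other groups, with differences of -0.36, -0.38 and -0.17 in Lck-Dlx5, line 72 and double transgenic tumors. The call in line 420 was lost without line 420 replicate 3 and without any 1 of the WT samples. Its sister enzyme Impdh2 was not analysed here.

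Both purine base salvage genes rose. Aprt, which salvages adenine, lay at 9.42, 9.75 and 9.65 in Lck-Dlx5 tumors, 9.69, 10.01 and 9.57 in line 72 tumors, 10.01, 9.92 and 10.15 in line 420 tumors, 9.68, 10.54, 9.58 and 9.69 in double transgenic tumors, against 8.83, 8.62 and 8.69 in WT T cells. Double transgenic replicate 2 stood apart above the other samples of its group, yet all of them exceeded WT. The differences of Aprt were 0.89 ± 0.21 (SE; adjusted p = 0.0066) in Lck-Dlx5, 1.04 ± 0.21 (SE; adjusted p = 0.0016) in line 72, 1.31 ± 0.21 (SE; adjusted p = 0.0006) in line 420 and 1.16 ± 0.19 (SE; adjusted p = 0.0013) in double transgenic tumors. Hprt, which salvages hypoxanthine and guanine, lay at 9.40 to 10.51 on the 13 tumor arrays, against 9.05 to 9.34 on the 3 WT arrays, with differences of 0.79, 1.04, 0.67 and 0.64 in Lck-Dlx5, line 72, line 420 and double transgenic tumors.

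The PRPP synthetases moved in opposite directions in line 72 tumors. Prps2 lay at 11.69, 11.26 and 11.69 in Lck-Dlx5 tumors, 10.37, 10.23 and 10.31 in line 72 tumors, 10.12, 11.10 and 10.89 in line 420 tumors, 11.50, 11.05, 10.85 and 11.06 in double transgenic tumors, against 11.36, 11.37 and 11.57 in WT T cells. It fell in line 72 tumors by 1.13 on the log2 scale (SE 0.22, adjusted p = 0.0014) and in line 420 tumors by 0.73 (SE 0.22, adjusted p = 0.022), but not in Lck-Dlx5 tumors, where the difference was 0.11. In line 420 the lowest value was that of replicate 1, and the call was lost without it. Prps1 lay at 8.24 to 9.17 on the 13 tumor arrays, against 8.33 to 8.37 on the 3 WT arrays, and was called higher in line 72 tumors, at 0.64 ± 0.19 (SE; adjusted p = 0.017), a call lost without line 72 replicate 2.

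Prps1, Prps2, Hprt and Ctps2 lie on the X chromosome, and sex was not the same in all groups. Xist, which is made from the inactive X chromosome, lay between 11.78 and 12.03 in the 3 line 72 tumors and between 5.16 and 5.80 in the 3 WT samples, and the Y-linked Kdm5d was low in line 72 tumors (3.83 to 3.99) and high in WT (9.42 to 9.63). Between these groups sex and genotype cannot be told apart. In line 420 tumors Xist was low in replicates 1 and 2 (5.33 and 5.54), where Prps2 lay at 10.12 and 11.10, and high in replicate 3 (12.37), where Prps2 lay at 10.89. All 3 Prps2 values were below the lowest WT value of 11.36. The part of sex in the values of these X-linked genes was not tested.

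In the pyrimidine pathway the genes split by step. Cad, the trifunctional enzyme of the first steps, had the largest rise of this pathway in all groups but the double transgenic tumors, where that of Ctps was larger. It lay at 9.42, 9.55 and 9.80 in Lck-Dlx5 tumors, 9.93, 10.26 and 10.16 in line 72 tumors, 9.60, 9.65 and 9.75 in line 420 tumors, 9.42, 9.94, 8.73 and 9.04 in double transgenic tumors, against 8.29, 8.17 and 8.19 in WT T cells. The groups did not overlap with WT, and line 72 tumors were again highest. The differences of Cad were 1.38 ± 0.22 (SE; adjusted p = 0.00096) in Lck-Dlx5, 1.90 ± 0.22 (SE; adjusted p = 3.7e-05) in line 72, 1.45 ± 0.22 (SE; adjusted p = 0.00053) in line 420 and 1.07 ± 0.21 (SE; adjusted p = 0.0031) in double transgenic tumors, a 3.74-fold higher level in line 72. Dhodh, the mitochondrial dehydrogenase of the pathway, was called in line 72 (0.53) and line 420 tumors (0.55), and Umps, which completes uridine monophosphate, in line 72 (0.69), line 420 (0.66) and double transgenic tumors (0.53). Neither was called in Lck-Dlx5 tumors, with differences of 0.19 for Dhodh and 0.40 for Umps.

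The CTP synthetases differed. Ctps rose in every tumor group, with differences of 1.05, 1.27, 1.20 and 1.15 in Lck-Dlx5, line 72, line 420 and double transgenic tumors and levels of 8.73 to 9.42 on the 13 tumor arrays, against 7.92 to 7.96 on the 3 WT arrays. Ctps2 instead lay at 7.58, 8.01 and 7.50 in Lck-Dlx5 tumors, 8.59, 8.17 and 8.52 in line 72 tumors, 8.38, 8.20 and 8.46 in line 420 tumors, 7.96, 8.36, 8.65 and 8.68 in double transgenic tumors, against 8.82, 8.87 and 8.79 in WT T cells. It fell in Lck-Dlx5 tumors, at -1.13 ± 0.19 (SE; adjusted p = 0.001), and its differences of -0.40, -0.48 and -0.41 in line 72, line 420 and double transgenic tumors were not called. Of the Lck-Dlx5 tumors, replicate 1 had high Xist (12.42) and replicates 2 and 3 low Xist (5.57 and 5.73). The Y-linked Kdm5d was high in replicate 2 (9.14) and low in replicates 1 and 3 (3.24 and 3.67). Replicate 3, in which Ctps2 was lowest, was thus low in both Xist and Kdm5d. Ctps2 was below every WT value in all 3 Lck-Dlx5 tumors, as it was in the other tumors, and the part of sex in its values was not tested. Cmpk1, the kinase for UMP and CMP, was not called against WT in any group, and Nme1, a nucleoside diphosphate kinase, rose in each, with differences of 0.92, 1.05, 0.96 and 0.96 in Lck-Dlx5, line 72, line 420 and double transgenic tumors.

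**Figure D3:**
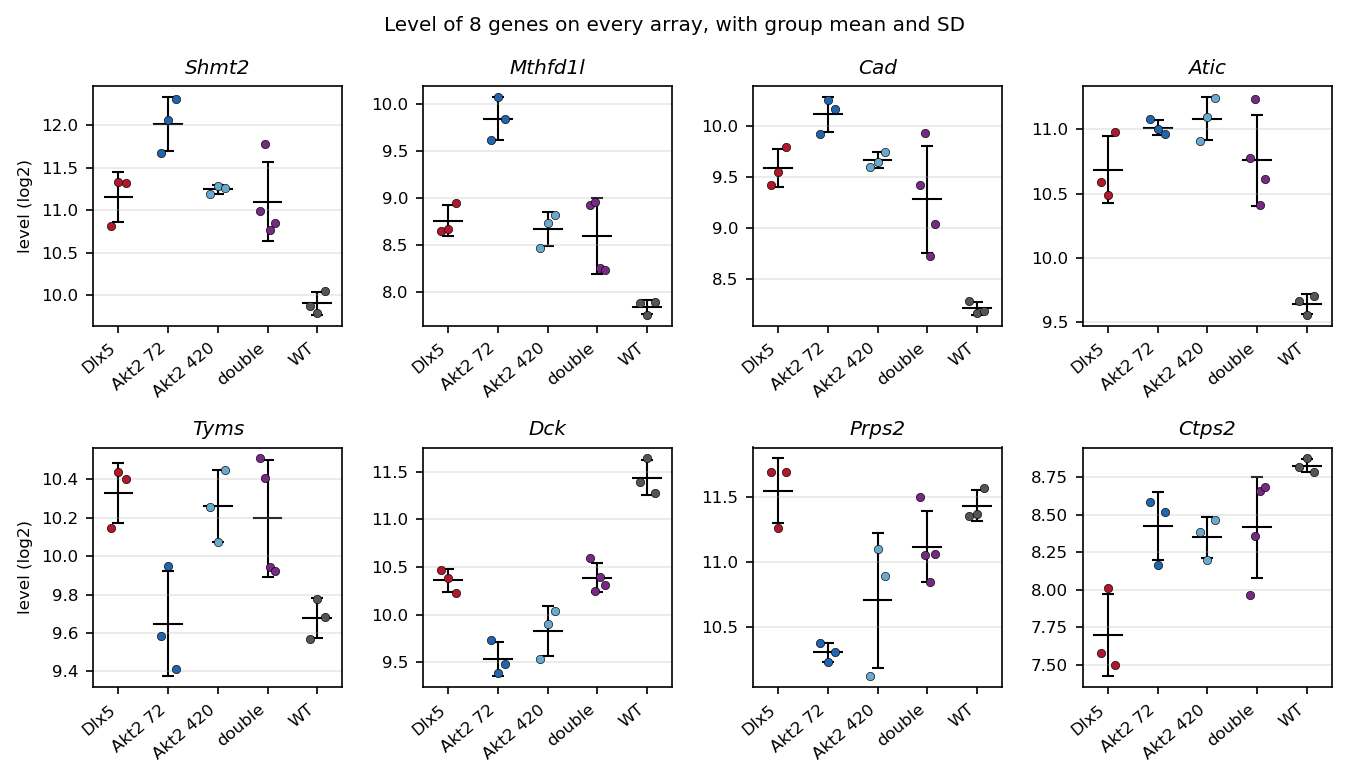
Log2 level of 8 of the genes on every array (points), with the group mean (line) and SD (bar); the 4 tumor groups stand left of WT, and each panel has its own y axis, which does not start at 0. Shmt2, Mthfd1l and Cad are highest in line 72 tumors, Tyms and Prps2 are low there, Ctps2 is lowest in Lck-Dlx5 tumors, and Dck is below WT in every tumor.

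Of the genes for deoxynucleotides and thymidylate, Rrm1, the large subunit of ribonucleotide reductase, Tk1, thymidine kinase, and Dctpp1, the dCTP pyrophosphatase, rose in every tumor group. Rrm1 differed by 0.83, 0.52, 0.78 and 0.58, Tk1 by 0.88, 1.15, 0.65 and 0.72 and Dctpp1 by 1.15, 1.35, 1.21 and 1.02 in Lck-Dlx5, line 72, line 420 and double transgenic tumors. Tyms, thymidylate synthase, lay at 10.15, 10.44 and 10.40 in Lck-Dlx5 tumors, 9.58, 9.95 and 9.41 in line 72 tumors, 10.26, 10.08 and 10.45 in line 420 tumors, 10.51, 10.41, 9.95 and 9.93 in double transgenic tumors, against 9.57, 9.78 and 9.68 in WT T cells. Line 72 tumors overlapped WT, while the other groups lay above it. The differences of Tyms were 0.65 ± 0.18 (SE; adjusted p = 0.015) in Lck-Dlx5, -0.03 ± 0.18 (SE; adjusted p = 0.91) in line 72, 0.58 ± 0.18 (SE; adjusted p = 0.024) in line 420 and 0.52 ± 0.17 (SE; adjusted p = 0.037) in double transgenic tumors. Rrm2, the small subunit of ribonucleotide reductase, was called in Lck-Dlx5 tumors alone, at 0.49 ± 0.15 (SE; adjusted p = 0.028), and that call was lost when any 1 of the Lck-Dlx5 or WT samples was left out. In line 72 tumors Rrm2 lay at 10.40, 10.39 and 10.40, within the WT range of 10.31 to 10.45. Dut, which makes deoxyuridylate, differed by 0.78, 0.50, 0.61 and 0.48 and was called in all groups but the double transgenic tumors. Its call in line 72 (limma, adjusted p = 0.048) held in 6 of 15 alternatives and was lost with the mean of its features. The other, dimmer feature of Dut lay at 6.90, 7.23 and 6.99 in line 72 tumors, against 6.92, 6.92 and 6.91 in WT.

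Dck, the deoxycytidine kinase that salvages deoxynucleosides and activates several nucleoside drugs, was called lower than WT in every group. It lay at 10.47, 10.38 and 10.23 in Lck-Dlx5 tumors, 9.73, 9.38 and 9.48 in line 72 tumors, 9.53, 9.90 and 10.04 in line 420 tumors, 10.59, 10.24, 10.39 and 10.31 in double transgenic tumors, against 11.39, 11.64 and 11.28 in WT T cells. Every tumor was below every WT sample, and the lowest group was line 72. Dck fell by 1.08 in Lck-Dlx5, by 1.91 in line 72, by 1.61 in line 420 and by 1.05 in double transgenic tumors on the log2 scale, with adjusted p of 0.00038, 1.6e-06, 1.2e-05 and 0.00026. In line 72 the tumor level was 0.267 times that of WT. These calls held in every alternative that was run.

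**Figure D4:**
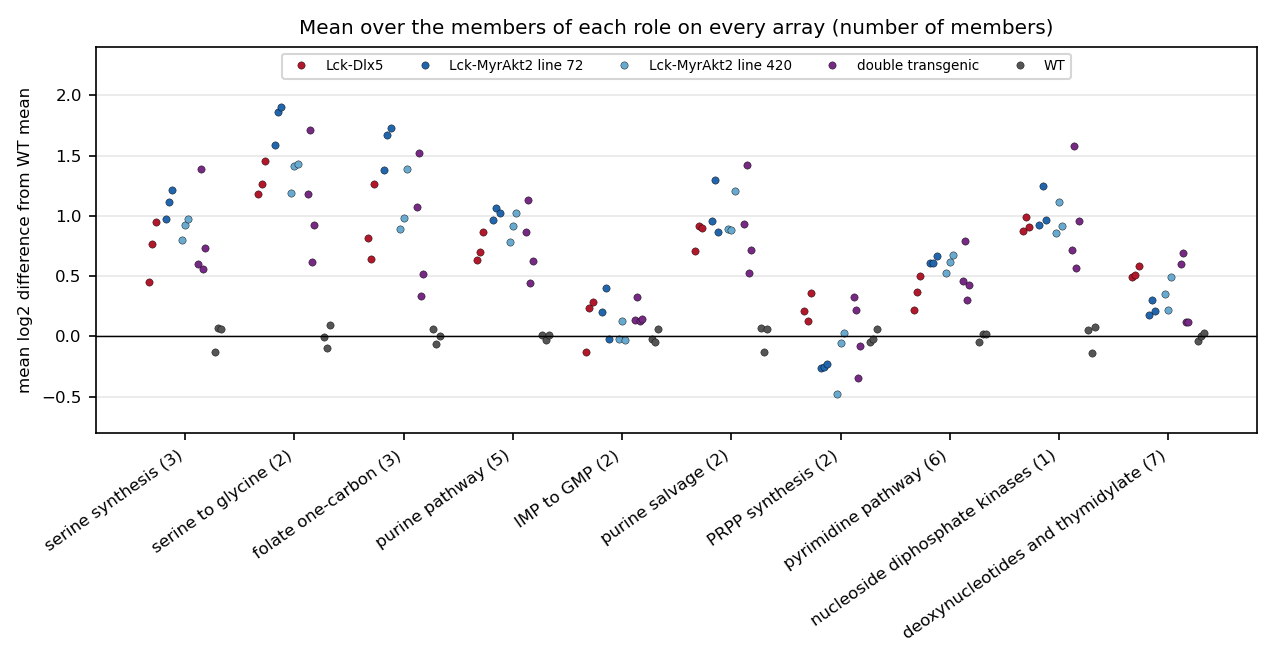
Mean log2 difference from the WT mean over the genes of each role (x axis, with the number of genes) on every array; each point is 1 array, colored by group. The serine to glycine and folate roles reach 1.91 and 1.73 on line 72 arrays, and the deoxynucleotide role lies between 0.18 and 0.30 in line 72 and between 0.49 and 0.58 in Lck-Dlx5 tumors. The genes of this last role did not all go 1 way. By group mean Tk1 and Dctpp1 were higher in line 72, and Rrm1, Rrm2, Tyms, Dut and Dck were higher in Lck-Dlx5 tumors.

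Promoters were searched for motifs of factors known to act on these pathways. Myc, which binds the E-box CACGTG with its partner Max, is known to activate genes of nucleotide synthesis, and Myc rose in each tumor group, with log2 differences of 1.09, 1.87, 1.28 and 1.48 in Lck-Dlx5, line 72, line 420 and double transgenic tumors. In the RefSeq promoter table (GRCm38.p6, 250 bases before to 50 after each start), 32 of the 33 genes matched, and the E-box was found in 4 of them (12.5%), Atic, Nme1, Paics and Tyms, against 8.09% of all genes. This share rests on 4 genes and was near that of all genes. The stretches upstream of 3 of these are printed. Atic and Nme1 rose in each group, and Tyms rose in all groups but line 72. The stretch of Paics, which was called in double transgenic tumors alone, is not printed because it overlaps Ppat. The part of Myc in these differences was not tested. The capitals mark the E-box, which reads the same on both strands.
Atic: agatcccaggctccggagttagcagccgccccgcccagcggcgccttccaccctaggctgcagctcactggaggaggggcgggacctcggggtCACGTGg
Nme1: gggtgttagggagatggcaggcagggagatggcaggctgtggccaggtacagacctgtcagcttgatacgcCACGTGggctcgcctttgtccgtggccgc
Tyms: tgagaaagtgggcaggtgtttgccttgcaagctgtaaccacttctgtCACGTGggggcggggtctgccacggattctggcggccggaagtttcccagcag
The Atic stretch is chr1:71557056-71557155 on the plus strand, with the E-box at position -7 from the start site. The Nme1 stretch is chr11:93968026-93968125 on the minus strand, with the E-box at -29, and the Tyms stretch is chr5:30073634-30073733 on the minus strand, with the E-box at -61. The Nme1 stretch belongs to an inner start and lies within the annotated gene (chr11:93958925-93968272). The window of the outer start of Nme1 (chr11:93968223-93968522) also holds an E-box, at -18. The E2F motif (TTTCCCGC or TTTGGCGC on either strand) was found in 2 genes, Ppat and Prps2 (6.25%, against 1.8% of all genes), the ATF4 motif TGATGNAA in 1, Prps1 (3.12%, against 4.51%), and CCAAT in 14 (43.8%, against 41.1%). Dck held none of these letters in its window, and neither did Shmt2, Mthfd1l and Cad, which rose in every group. Ctps2, which fell in Lck-Dlx5 tumors, held CCAAT. No test compared the motif shares with those of all genes. A match is a description of the sequence, and binding was not measured.

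The comparison of Lck-Dlx5 with line 72 tumors set the Dlx5 transgene against 1 founder line of the MyrAkt2 transgene. Against the other founder line, line 420, 0 of 33 genes were called, as given below. Lck-Dlx5 and line 72 tumors also differed in age and in Xist. Xist lay at 12.42, 5.57 and 5.73 in Lck-Dlx5 tumors and between 11.78 and 12.03 in line 72 tumors. The part of sex in the values of the X-linked Prps2 and Ctps2 was not tested. Of the 33 genes 5 were higher and 4 lower in Lck-Dlx5 tumors (15.2% and 12.1%), against 6.94% and 12.8% of all genes. The share that was lower was near that of all genes. The lower ones were Mthfd1l at -1.08 ± 0.20 (SE; adjusted p = 0.0021), Shmt2 at -0.86 ± 0.24 (SE; adjusted p = 0.022), Psat1 at -0.55 ± 0.18 (SE; adjusted p = 0.042) and Ctps2 at -0.73 ± 0.19 (SE; adjusted p = 0.015). The higher ones were Prps2 at 1.25 ± 0.22 (SE; adjusted p = 0.0018), Dck at 0.83 ± 0.15 (SE; adjusted p = 0.002), Tyms at 0.68 ± 0.18 (SE; adjusted p = 0.017), Cmpk1 at 0.50 ± 0.12 (SE; adjusted p = 0.012) and Rrm2 at 0.47 ± 0.15 (SE; adjusted p = 0.045). Thus Tyms and Rrm2 of the deoxynucleotide steps stood higher in Lck-Dlx5 tumors, and the samples were 10.84, 10.84 and 10.92 in Lck-Dlx5 against 10.40, 10.39 and 10.40 in line 72 tumors for Rrm2. Cmpk1 lay at 9.20, 9.08 and 9.36 in Lck-Dlx5 and at 8.92, 8.67 and 8.54 in line 72 tumors. The count of 9 called genes was 5 without Lck-Dlx5 replicate 1 and 3 without line 72 replicate 3, and the calls for Mthfd1l, Prps2 and Dck held in every alternative.

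Set against line 72, line 420 tumors, in which Dlx5 was also high, had 2 genes higher and 1 lower (6.06% and 3.03%), against 3.73% and 7.45% of all genes. These shares rest on 3 genes, and no test compared them with those of all genes. Mthfd1l was lower, at -1.17 ± 0.20 (SE; adjusted p = 0.0017), and Tyms and Cmpk1 were higher, at 0.61 ± 0.18 (SE; adjusted p = 0.04) and 0.46 ± 0.12 (SE; adjusted p = 0.028). Shmt2 had a difference of -0.77 ± 0.24 (SE; adjusted p = 0.051). The count of 3 was 1 without line 420 replicate 2 or 3 or without line 72 replicate 3, and Mthfd1l held in every alternative. Double transgenic tumors had 4 genes higher and 4 lower than line 72 (12.1% each), near the 9.19% and 8.51% of all genes. Lower were Mthfd1l at -1.25 ± 0.18 (SE; adjusted p = 0.00049), Shmt2 at -0.91 ± 0.22 (SE; adjusted p = 0.011), Cad at -0.83 ± 0.21 (SE; adjusted p = 0.015) and Psat1 at -0.51 ± 0.16 (SE; adjusted p = 0.044). Higher were Dck at 0.85 ± 0.14 (SE; adjusted p = 0.001), Prps2 at 0.81 ± 0.21 (SE; adjusted p = 0.015), Tyms at 0.55 ± 0.17 (SE; adjusted p = 0.035) and Cmpk1 at 0.48 ± 0.11 (SE; adjusted p = 0.011). The count of 8 was 14 without double transgenic replicate 2, 5 without line 72 replicate 2 and 3 without line 72 replicate 3. These 3 comparisons share the line 72 arrays, so their values are given side by side.

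**Figure D5:**
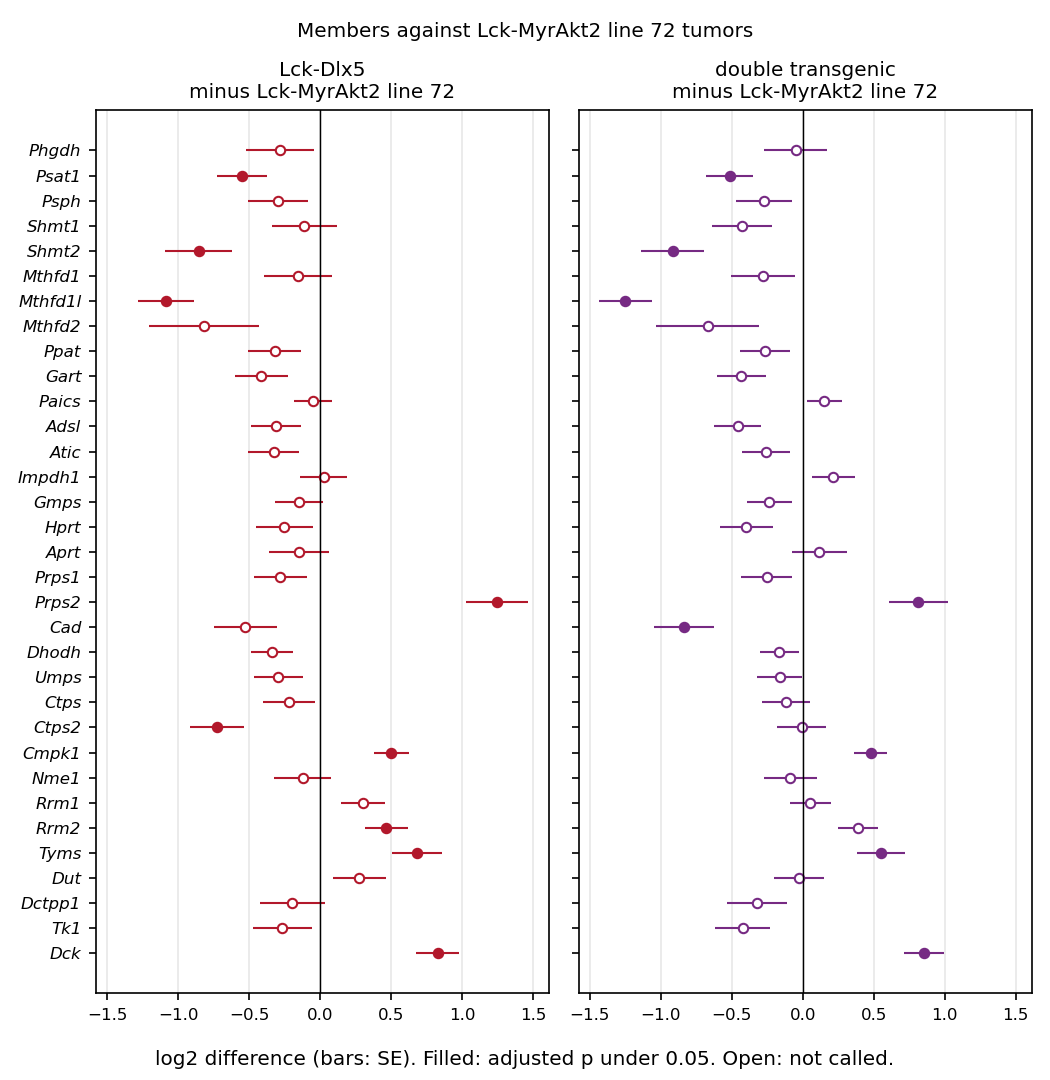
Log2 difference of each gene (y axis) between Lck-Dlx5 and line 72 tumors (left) and between double transgenic and line 72 tumors (right); bars are the SE, filled points have an adjusted p under 0.05. Mthfd1l lies farthest left in both panels (-1.08 and -1.25), and Prps2, Dck, Tyms and Cmpk1 are filled to the right of 0 in both.

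Among the groups with high Dlx5 no gene was called. Limma called 0 of 33 between Lck-Dlx5 and line 420 tumors (5 at an unadjusted p under 0.05), where 0.827% of all genes were called, 0 of 33 between double transgenic and Lck-Dlx5 tumors (1 at an unadjusted p under 0.05), where 1.86% were called, and 0 of 33 between double transgenic and line 420 tumors (2 at an unadjusted p under 0.05), where 0.178% were called. These comparisons could not place the genes closely, since the 95% intervals of single genes reached from 0.25 to 0.83 to either side. For Shmt2 the interval was -0.59 to 0.42 between Lck-Dlx5 and line 420 tumors, and for Ctps2 it was 0.34 to 1.09 between double transgenic and Lck-Dlx5 tumors, with an adjusted p of 0.052. Without line 420 replicate 2, Prps2 was called higher in Lck-Dlx5 than in line 420 tumors. Ctps2 was called between double transgenic and Lck-Dlx5 tumors without Lck-Dlx5 replicate 2 or without double transgenic replicate 1 or 2, and Cad and Dck were called between double transgenic and line 420 tumors without double transgenic replicate 2.

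The double transgenic tumors differed among themselves. They fall into pairs by the founder line of the Dlx5 transgene, and the same pairs differ in the Akt2 label, which is line 420 for the founder line 47 tumors and is not given for the founder line 86 tumors, so that the founder lines of the 2 transgenes cannot be told apart in this split. Both founder line 47 tumors lay above both founder line 86 tumors for 24 of 33 genes and below them for 2, against 25% and 26.2% of all genes. The median log2 difference of founder line 47 over 86 was 0.52 over the 33 genes and 0.006 over all genes. Mthfd2 lay at 8.69 and 9.38 in founder line 47 tumors and 7.83 and 8.10 in founder line 86 tumors, Mthfd1 at 10.22 and 10.84 in founder line 47 and 9.53 and 9.85 in founder line 86, and Cad at 9.42 and 9.94 in founder line 47 and 8.73 and 9.04 in founder line 86. Ctps2 and Impdh1 were the 2 genes below. With founder line 47 tumors alone against WT 28 of 33 genes were called, and with founder line 86 tumors alone 13, where 29.5% and 11.9% of all genes were called. The mean level over 19 proliferation genes was 11.07 and 11.12 in founder line 47 and 10.58 and 10.65 in founder line 86 tumors. The mean level over 9 T-cell markers was lower in founder line 47 (11.09 and 10.46) than in founder line 86 tumors (11.68 and 11.74). Cd5 lay at 9.70 and 7.36 in founder line 47 and 11.80 and 11.67 in founder line 86 tumors, and Cd2 at 7.11 and 6.00 in founder line 47 and 9.21 and 9.41 in founder line 86 tumors. The other T-cell markers differed less. Cd3e lay at 12.16 and 12.04 in founder line 47 and 12.35 and 12.25 in founder line 86 tumors, and for Cd4 and Cd8b1 the pairs overlapped. Xist was low in founder line 47 (5.65 and 4.94) and high in founder line 86 tumors (12.57 and 12.37), and the sample codes were letters for founder line 47 and numbers for founder line 86. No test was made of this split, which has 2 tumors a side, and the part of these other differences in it was not tested.

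Other genes of the same pathways were taken from lists. Of 17 tested neighbors in serine, glycine and folate handling, 4 rose and 2 fell in Lck-Dlx5, 12 rose and 0 fell in line 72, 5 rose and 1 fell in line 420 and 3 rose and 2 fell in double transgenic tumors. The shares that rose were 23.5%, 70.6%, 29.4% and 17.6% in these groups, beside 13.7%, 20.7%, 15.1% and 14.9% of all genes, so that the share in double transgenic tumors was near that of all genes. Slc19a1, the reduced folate carrier, lay at 7.95, 7.88 and 8.16 in Lck-Dlx5 tumors, 8.81, 9.04 and 9.12 in line 72 tumors, 8.10, 8.38 and 8.09 in line 420 tumors, 8.16, 8.56, 8.28 and 8.19 in double transgenic tumors, against 7.29, 7.56 and 7.35 in WT T cells, and differed by 0.60, 1.59, 0.79 and 0.90, called in every group. Sfxn1, a mitochondrial serine transporter, differed by 0.94, 1.22, 1.13 and 0.91, also called in every group. Slc1a5, an amino acid transporter, and Slc19a1 were lower in Lck-Dlx5 than in line 72 tumors by 0.75 and 0.99 on the log2 scale. Ggh, which trims folate polyglutamates, fell by 1.06 in Lck-Dlx5 and by 1.10 in double transgenic tumors.

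Of 27 tested genes of nucleotide salvage, kinases and breakdown, 5 rose and 3 fell in Lck-Dlx5, 12 rose and 1 fell in line 72, 8 rose and 1 fell in line 420 and 5 rose and 1 fell in double transgenic tumors. The shares that rose were 18.5%, 44.4%, 29.6% and 18.5% in these groups, beside 13.7%, 20.7%, 15.1% and 14.9% of all genes, so that those in Lck-Dlx5 and double transgenic tumors were near the shares of all genes. In line 72 tumors the largest rise in this list was that of Nt5e, which removes phosphate from extracellular AMP, at 2.60 ± 0.47 (SE; adjusted p = 0.00085), and Xdh and Gda, which degrade purines, rose by 1.61 and 1.35. Xdh and Gda were highest in line 72 replicate 2, at 9.30 and 9.06. That array also had the highest mean level of the macrophage markers described below (9.86), and the part of other cell types in these rises was not tested. Nt5e lay at 6.31, 6.00 and 6.00 in Lck-Dlx5 tumors, 9.58, 8.72 and 10.16 in line 72 tumors, 6.12, 5.65 and 6.55 in line 420 tumors, 6.56, 5.97, 7.36 and 8.30 in double transgenic tumors, against 6.94, 6.97 and 6.76 in WT T cells. Its line 72 values lay above those of every other sample. Samhd1, which hydrolyzes deoxynucleoside triphosphates, fell by 2.52 in Lck-Dlx5 (adjusted p = 0.0012) and by 1.84 in double transgenic tumors (adjusted p = 0.0058). Adk, adenosine kinase, differed by 0.89, 0.56, 0.90 and 0.74 in Lck-Dlx5, line 72, line 420 and double transgenic tumors.

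Atf4, which is known to drive the serine genes under amino acid stress, and 11 of its targets outside the 36 genes were read beside them. Of the 12, 4 rose and 0 fell in Lck-Dlx5, 8 rose and 1 fell in line 72, 7 rose and 1 fell in line 420 and 5 rose and 1 fell in double transgenic tumors, and the shares that rose were 33.3%, 66.7%, 58.3% and 41.7% in these groups. Of all genes 13.7%, 20.7%, 15.1% and 14.9% rose. Atf4 itself lay at 7.66 to 8.49 on the tumor arrays, against 7.36 to 7.62 in WT. The targets differed: Ddit3 lay at 7.56 to 8.44 on the tumor arrays, against 8.08 to 8.27 in WT, and Trib3 at 6.11 to 6.82, against 6.30 to 6.34. Slc7a5, an amino acid transporter, differed by 1.71, 2.20, 1.57 and 1.44, and Asns, asparagine synthetase, by 1.51, 2.94, 1.97 and 1.59 in Lck-Dlx5, line 72, line 420 and double transgenic tumors, and Asns was called in line 72 and line 420. Slc7a11, the cystine transporter, fell in line 72, line 420 and double transgenic tumors, and in Lck-Dlx5 tumors it lay at 5.11, 11.30 and 4.93, with replicate 2 near the WT values of 9.96, 10.33 and 10.17. Of 19 proliferation genes, 18 rose in Lck-Dlx5, 10 in line 72, 10 in line 420 and 9 in double transgenic tumors and none fell. The shares that rose were 94.7%, 52.6%, 52.6% and 47.4%, beside the same shares of all genes as above. Mki67, the proliferation marker, lay at 12.36, 12.38 and 12.42 in Lck-Dlx5 tumors, 12.09, 12.10 and 11.95 in line 72 tumors, 12.21, 12.16 and 12.20 in line 420 tumors, 12.41, 11.98, 12.07 and 12.09 in double transgenic tumors, against 11.98, 11.95 and 12.10 in WT T cells, and rose in Lck-Dlx5 tumors alone, at 0.38 ± 0.11 (SE; adjusted p = 0.018). Between Lck-Dlx5 and line 72 tumors 7 of the 19 were higher in Lck-Dlx5 and 0 lower, beside the higher Tyms and Rrm2. The 7 are 36.8% of the list, against 6.94% of all genes that were higher in that comparison. The part of Myc, Atf4 and proliferation in the changes of the 33 genes was not tested.

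Markers of cell types moved with the groups as well. Of 9 T-cell markers, 3 fell in Lck-Dlx5, 6 in line 72, 7 in line 420 and 1 in double transgenic tumors and none rose, and their mean level was 10.37 to 11.12 in Lck-Dlx5, 10.06 to 10.54 in line 72, 9.87 to 10.68 in line 420 and 10.46 to 11.74 in double transgenic tumors, against 11.80 to 11.91 in WT. Cd8a fell by 5.16 in line 72 tumors, to levels of 8.72, 7.12 and 6.78, against 12.60, 12.77 and 12.74 in WT. Of 7 thymic epithelial markers, 7, 5, 7 and 5 fell in Lck-Dlx5, line 72, line 420 and double transgenic tumors, with mean levels of 6.09 to 6.79 over all tumors, against 7.33 to 7.60 in WT. Of 7 neutrophil markers, 6, 0, 7 and 6 fell in the same groups, with mean levels of 5.48 to 5.66, 6.63 to 8.36, 5.59 to 5.72 and 5.38 to 5.73, against 7.26 to 7.91 in WT. Of 8 macrophage markers, 1, 5, 3 and 1 rose, with mean levels of 8.07 to 8.60, 8.66 to 9.86, 8.65 to 9.31 and 7.92 to 8.79, against 7.83 to 8.14 in WT. Of 8 fibroblast and endothelial markers, 0, 4, 2 and 0 rose and 0, 0, 1 and 0 fell, and of 5 tested B-cell markers 3, 4, 1 and 1 fell. Of all genes 13.7%, 20.7%, 15.1% and 14.9% rose and 15.9%, 15.6%, 15.4% and 8.93% fell in these groups. The T-cell share that fell in double transgenic tumors (11.1%) was near that of all genes. So was the macrophage share that rose in Lck-Dlx5 and double transgenic tumors (12.5%). The B-cell share that fell in line 420 and double transgenic tumors (20%) is 1 gene. No marker of the T-cell, epithelial, neutrophil, macrophage or fibroblast and endothelial lists was below the array median on all 16 arrays, and among B-cell markers Ebf1 was. Of 5 erythroid markers Slc4a1 alone had a feature of its own. It lay at 9.18, 8.41 and 8.49 in line 72 tumors and at 6.21 to 6.99 in the other tumors, against 6.77 to 7.33 in WT, and was called higher in line 72 (adjusted p = 0.00014) and lower in Lck-Dlx5 tumors (adjusted p = 0.026). In bulk samples fewer cells of a type and less RNA per cell cannot be told apart, and the part of the other cell types in the changes of the 33 genes was not tested.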

How the data were processed

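RNA from 16 samples was hybridized, 1 array per sample, to a whole-transcript mouse array of Affymetrix. The authors deposited log2 values per transcript cluster from Affymetrix Expression Console, whose version, summarization and normalization steps are not given in the sources used here. The values were used as deposited. Of 41345 features, the annotation names 23521 with 1 gene, 1820 with several and 16004 with none; for each of 22180 genes the brightest of its own features was kept. Genes above the array median on at least 3 arrays were tested (12932), which removed none of the 33 genes with a feature.

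Limma 3.58.1 in R 4.3.3 (lmFit and eBayes) fitted a mean for each group over the 16 arrays, with Benjamini-Hochberg adjustment over all genes tested within each of 10 comparisons and a threshold of 0.05. Replicates were separate mice, and the number of arrays limits the precision. The steps were tested on simulated data for Lck-Dlx5 against WT (12932 genes): it found 81 of 100 genes shifted by 1 and 93 of 100 shifted by 2 on the log2 scale, and called 4 genes without a shift. The 36 genes, their roles and the other lists were chosen with earlier results of these data known. Genes named outside the 36 are the up to 3 called genes of largest change per list described, and the transgene, Myc, proliferation and sex transcripts; other names, and the founder line split, were chosen after their values were seen. Promoter stretches and coordinates are RefSeq's on GRCm38.p6. Plots used Python 3.11.15 and matplotlib 3.10.9. Alternatives were a common median for the arrays or quantile normalization, the filter dropped or raised to the 75th percentile, averaging a gene's features, a robust eBayes with a trend, weights for arrays, fitting the compared arrays by themselves, a term for the type of sample code, leaving out founder line 47 or 86 from the double transgenic group, and leaving out single arrays.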

Additional observations from a re-analysis of the deposited data

Results flagged for a closer look

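Of 33 genes checked in the double transgenic group for a sample far from the others, 1 had one. Aprt lay at 10.54 in replicate 2, against 9.68, 9.58 and 9.69 in the other replicates, a gap of 0.884 of the range of the group, above the 95% critical value of Dixon's test for 4 samples. Chance gives about 1 such sample in 20 groups.

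For 3 genes the difference from WT was not the same in the tumors of the 2 Lck-MyrAkt2 founder lines by a test of the difference between them. The log2 difference of line 420 over line 72 was -1.17 for Mthfd1l (adjusted p = 0.0017), 0.46 for Cmpk1 (adjusted p = 0.028) and 0.61 for Tyms (adjusted p = 0.04) by limma. For Mthfd1l the 3 line 420 tumors lay at 8.47, 8.73 and 8.81 and the 3 line 72 tumors at 9.62, 10.07 and 9.84. Dlx5 was high in the line 420 and low in the line 72 tumors, and its part in these differences was not tested.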

How the results depend on the processing

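No paired analysis was possible because the labels number the replicates of WT alone, and the other replicate numbers only name the samples. Of 119 calls of a gene in a comparison, 76 held in every alternative and 43 were lost in at least 1, and 53 values without a call gained one in at least 1. With each array left out in turn, the number of called genes ran from 20 to 23 for Lck-Dlx5 against WT (24 with all arrays), from 23 to 25 for line 72 against WT (26), from 20 to 26 for line 420 against WT (26), from 15 to 26 for double transgenic against WT (23), from 3 to 7 for Lck-Dlx5 against line 72 (9), from 0 to 1 for Lck-Dlx5 against line 420 (0), from 1 to 3 for line 420 against line 72 (3), from 0 to 1 for double transgenic against Lck-Dlx5 (0), from 0 to 2 for double transgenic against line 420 (0) and from 3 to 14 for double transgenic against line 72 (8). Double transgenic tumors of founder line 86 alone gave 13 called genes against WT, 8 against Lck-Dlx5, 6 against line 420 and 16 against line 72. In these fits 11.9%, 14.9%, 10.2% and 19.9% of all genes were called, beside 23.8%, 1.86%, 0.178% and 17.7% with all arrays. With the type of sample code as a term the count was 5 for line 420 against line 72, and for double transgenic tumors 3 against Lck-Dlx5 and 13 against line 72. The shares of all genes called there were 11%, 10.4% and 19.1%. Array weights gave 1 against Lck-Dlx5 and 13 against line 72 for double transgenic tumors, where 9.44% and 23.5% of all genes were called. The shift to the same median gave 1 for line 420 against line 72 (10.9% of all genes) and 1 for double transgenic against Lck-Dlx5 (2.85%). No filter gave 1 for double transgenic against Lck-Dlx5 (2.73%), and only the arrays compared gave 3 for double transgenic against line 72 (9.3%). The cause of these shifts was not tested, other than that fewer samples enter some fits.

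Signs turned only for values without a call. With founder line 47 alone the log2 difference of double transgenic tumors became positive against Lck-Dlx5 for Shmt1 (0.068), Mthfd1 (0.294), Mthfd1l (0.184), Cad (0.089), Rrm1 (0.017), Rrm2 (0.21) and Dut (0.016), against line 420 for Shmt1 (0.067), Mthfd1 (0.075), Cad (0.015), Rrm1 (0.069) and Dut (0.184), and against line 72 for Mthfd1 (0.138), Prps1 (0.072), Umps (0.11) and Dctpp1 (0.018). Against Lck-Dlx5, Mthfd1 ran from -0.367 to 0.069 with each array left out in turn, turning positive without double transgenic replicate 3, and Rrm2 from -0.189 to 0.022, turning positive without double transgenic replicate 3 (0.016) or 4 (0.022), and Rrm2 was 0.022 with the mean of its features. The number of arrays per group limits all of these values.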
